A study of Mus musculus with 36 samples.

Results

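The guanylate binding proteins (GBPs) are large GTPases that macrophages make in quantity after interferon. The 8 members described here, Gbp2, Gbp3, Gbp4, Gbp5, Gbp6, Gbp7, Gbp8 and Gbp9, were taken by gene name, and all 8 were among the 49568 gene names of each count table. They were followed in RAW264.7 cells, a mouse macrophage line, given PBS or a synthetic peptide from the HLA-DRβ chain. The 65–79*SE peptide holds the shared epitope, found in HLA-DRB1 alleles that raise the risk of rheumatoid arthritis, whereas 65–79*PE holds a protective sequence. RNA-seq gave 36 libraries in 6 groups of 6, and the study asked whether the 2 peptides steer macrophages differently.

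In 1 table the peptide groups were labelled 65–79*SE with IFNγ and 65–79*PE with IFNγ, and in the other 65–79*SE with Il-4 and 65–79*PE with Il-4. Peptide was used at 100 µg/ml and cytokine at 5 ng/ml for 72 h, with fresh medium at 48 h. The PBS groups carry the cytokine of their table in the title and PBS alone as treatment, so whether they received cytokine could not be settled. A difference from PBS may therefore hold the effect of cytokine and peptide together, which cannot be told apart. Libraries of replicates 1–3 have single letters as column names and those of replicates 4–6 have numbered names, and these 2 label sets are shown apart, with pooled values added where stated. In replicates 1–3 the same letters name libraries of both tables, and whether those shared cells is not given. All cells came from a single line. The replicates were described as biological ones from more than 1 experiment, which the labels do not tie to libraries, and p-values measure only the spread between these libraries.

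GBPs belong to the dynamin superfamily. Interferon gamma signals through its receptor and the kinases Jak1 and Jak2 to gamma activated sites (GAS) in promoters, while Irf proteins bind interferon stimulated response elements (ISRE). The proteins collect on vacuoles that hold parasites and on the surface of bacteria that have entered the cell, and several of them help inflammasomes to assemble. Mouse Gbp2 and Gbp5 end in a CaaX box and are anchored to membranes by a prenyl group.

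By GENCODE M21 (GRCm38), the genes lie in 2 clusters. Gbp5, Gbp7, Gbp3 and Gbp2 are on the plus strand of chromosome 3, from 142493978 to 142638008. Gbp8, Gbp9, Gbp4 and Gbp6 are on the minus strand of chromosome 5, from 105014150 to 105293698. Reads were counted only where they aligned uniquely, so sequence shared between genes limits what a count means. Of the 100-base windows along its transcripts, Gbp6 shared 64.5% with other genes, among them Gbp10 and the gene model Gm43302, and Gbp7 shared 10%. The other 6 members shared at most 4.39%, and Gbp2 shared 0. The levels of Gbp6 are therefore uncertain.

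RefSeq promoters (GRCm38.p6) were matched for 4 of the 8 members, all of chromosome 3, and were searched on both strands for GAS (TTCNNNGAA) and ISRE (a pair of GAAA runs with 2 bases of any kind between them). They are shown because the members with an entry were all called higher with 65–79*PE in both label sets, and capitals mark the matches. Positions are counted from the transcription start, and all 4 lie on the plus strand.
Gbp2, chr3:142620493-142620623: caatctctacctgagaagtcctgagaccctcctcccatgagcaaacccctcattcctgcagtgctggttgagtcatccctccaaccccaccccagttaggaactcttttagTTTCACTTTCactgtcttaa
Gbp3, chr3:142559874-142560024: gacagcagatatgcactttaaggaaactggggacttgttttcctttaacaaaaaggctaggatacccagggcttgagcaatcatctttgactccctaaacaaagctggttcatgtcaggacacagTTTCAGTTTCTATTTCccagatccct
Gbp5, chr3:142496764-142496900: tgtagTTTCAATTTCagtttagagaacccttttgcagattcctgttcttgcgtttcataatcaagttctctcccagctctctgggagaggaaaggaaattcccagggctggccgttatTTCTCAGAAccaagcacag
Gbp7, chr3:142530166-142530302: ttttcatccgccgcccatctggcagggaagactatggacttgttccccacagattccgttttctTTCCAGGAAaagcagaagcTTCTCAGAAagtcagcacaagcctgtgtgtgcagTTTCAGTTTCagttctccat

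Gbp3 had 2 promoter entries, and the one not shown held no ISRE or GAS match. Each of the 4 promoters shown held an ISRE match, which reads on the minus strand. It began at −59 in Gbp2, −165 in Gbp5 and −53 in Gbp7, and in Gbp3 at −45 and −39, where the matches overlap. GAS matches were at −52 and, outside the printed window, at −245 in Gbp5, and at −106 and −87 in Gbp7. Of 32851 RefSeq promoters of the same length, 3.44% held the ISRE letters, 8.3% the GAS letters and 0.454% both. A match describes the letters and does not show binding. Gbp4, Gbp6, Gbp8 and Gbp9 had no entry.

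Total counts per library ran from 20666573 to 63155889 in the IFNγ table and from 17049921 to 30639021 in the Il-4 table. Levels are CPM, counts scaled to a common library size (TMM), and a count of 0 allows up to 3 counts, which is 0.0475 to 0.145 CPM in the IFNγ table and 0.0979 to 0.176 CPM in the Il-4 table. This floor covers counting error only. The 8 macrophage markers summed to between 4079 and 7925 CPM in the IFNγ libraries. In replicates 1–3 this sum was 6915 to 7925 CPM in PBS, 5482 to 5944 in 65–79*SE and 4769 to 4842 in 65–79*PE, and in replicates 4–6 it was 4079 to 5560, 6961 to 7893 and 5875 to 6651 CPM. Single macrophage markers moved in different directions against PBS. Adgre1 was called higher with 65–79*SE in replicates 1–3 and with 65–79*PE in replicates 4–6. Lyz2 was called lower with 65–79*PE in replicates 1–3 and higher with 65–79*SE in replicates 4–6. The part of these shifts in the results was not tested. By contrast, markers of T cells, B cells, fibroblasts, epithelium and neutrophils each summed to at most 1.45 CPM in any library. The neutrophil marker Mpo was called higher than PBS in 65–79*SE replicates 1–3 (2.63 ± 0.562), with at most 31 counts in a library. In replicates 1–3 of the IFNγ table, Cd4 was called lower than PBS with 65–79*SE, and the fibroblast marker Pdgfrb with both peptides. Before any contrast is given, 3 libraries need mention. Those labelled 65–79*SE with IFNγ, replicates 4, 5 and 6, had all 8 members at levels that overlapped PBS, and what set them apart from replicates 1–3 was not tested.

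In the IFNγ table, the 8 members together made up 23.9 ± 0.66 CPM (SD, n = 3) in PBS replicates 1–3, 476 ± 45.5 CPM in 65–79*SE and 290.5 ± 4.78 CPM in 65–79*PE. The sums in replicates 4–6 were 49.8 ± 7.15 CPM in PBS, 44.7 ± 0.896 CPM in 65–79*SE and 619.5 ± 42.5 CPM in 65–79*PE. So 65–79*PE stood far above PBS in both label sets, and 65–79*SE in replicates 1–3. In bulk RNA, a larger share of responding cells and more RNA per cell cannot be told apart.

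**Figure D1:**
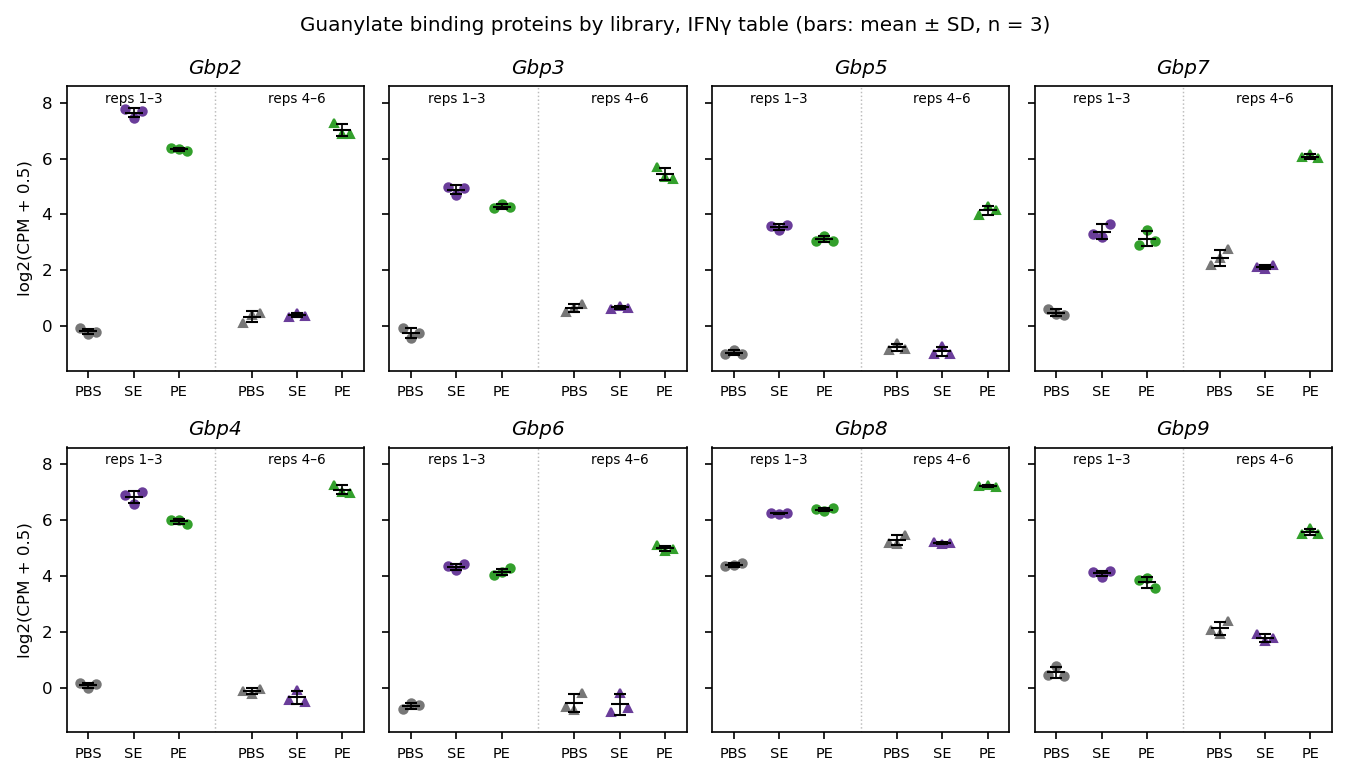
Level of each member in each library of the IFNγ table, as log2(CPM + 0.5) on the vertical axis, with PBS in grey, 65–79*SE in purple and 65–79*PE in green. Circles are replicates 1–3, triangles are replicates 4–6 and bars are mean ± SD (n = 3). In all 8 panels the purple circles sit high, with the green, and the purple triangles sit low, with the grey.

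Gbp2, which coats the vacuoles of intracellular parasites, had the largest CPM of the members in 65–79*SE replicates 1–3. Its levels were 0.448, 0.333 and 0.374 CPM in PBS, 218, 177 and 207 CPM in 65–79*SE and 82.5, 81.3 and 77.4 CPM in 65–79*PE. Replicates 4–6 gave 0.577, 0.828 and 0.898 CPM in PBS, 0.762, 0.883 and 0.779 CPM in 65–79*SE, and 152.9, 117.5 and 118.2 CPM in 65–79*PE. The 3 groups of replicates 1–3 did not overlap, whereas in replicates 4–6 PBS and 65–79*SE did. The log2 fold change against PBS was 9.0 ± 0.167 (SE) for 65–79*SE and 7.69 ± 0.167 for 65–79*PE in replicates 1–3 (adjusted p = 7.15e-19 and 9.22e-18). In replicates 4–6 it was 0.11 ± 0.261 (adjusted p = 0.88) and 7.44 ± 0.151 (adjusted p = 2.36e-18).

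Gbp5, which promotes assembly of the Nlrp3 inflammasome, was close to the floor in PBS. PBS replicates 1–3 held 0, 2 and 0 counts, against 420, 355 and 441 in 65–79*SE and 263, 326 and 276 in 65–79*PE. PBS replicates 4–6 held 3, 4 and 3 counts, 65–79*SE 0, 2 and 0, and 65–79*PE 372, 598 and 679. Because PBS was so low, its change is given as a ratio of summed counts with a 95% interval for counting error alone. In replicates 1–3 the ratio to PBS was 566 (156 to 4679) for 65–79*SE and 411 (114 to 3403) for 65–79*PE. In replicates 4–6 it was 215 (117 to 450) for 65–79*PE and 0.359 (0.0382 to 1.68) for 65–79*SE, an interval that holds no change.

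Gbp7 and Gbp3 are the other chromosome 3 members. Gbp7, a member tied to oxidative and autophagic killing of bacteria, rose by a log2 fold change of 3.48 ± 0.205 in 65–79*SE and 3.21 ± 0.208 in 65–79*PE in replicates 1–3, from 0.898 ± 0.121 CPM in PBS. In replicates 4–6 its PBS level was already 5.05 ± 1.1 CPM, and its level in 65–79*PE was 66.9 ± 3.89 CPM, a log2 fold change of 3.73 ± 0.16. The same step between label sets stood in the PBS cells of the Il-4 table, 0.626 ± 0.103 CPM in replicates 1–3 and 3.38 ± 0.258 CPM in replicates 4–6. Gbp3 went from 0.344 ± 0.103 CPM in PBS to 29.3 ± 3.23 CPM in 65–79*SE and 19.0 ± 1.05 CPM in 65–79*PE in replicates 1–3, log2 fold changes of 6.38 ± 0.18 and 5.76 ± 0.183. In 65–79*PE replicates 4–6 it reached 43.2 ± 6.85 CPM, from 1.07 ± 0.155 CPM in PBS.

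On chromosome 5, Gbp4 stood at 0.616, 0.485 and 0.592 CPM in PBS replicates 1–3, then at 119, 94.8 and 128 CPM in 65–79*SE and at 63.4, 63 and 57.9 CPM in 65–79*PE. Replicates 4–6 had 0.433, 0.355 and 0.473 CPM in PBS, 0.238, 0.441 and 0.203 CPM in 65–79*SE and 153.7, 127.7 and 126.5 CPM in 65–79*PE. Every 65–79*PE library was far above every PBS library, and the log2 fold change against PBS was 6.75 ± 0.16 in replicates 1–3 and 8.29 ± 0.162 in replicates 4–6. Gbp6 went from 0.141 ± 0.0506 CPM to 17.2 ± 1.47 CPM with 65–79*PE in replicates 1–3 and from 0.194 ± 0.161 CPM to 31.2 ± 2.16 CPM in replicates 4–6. Gbp9 went from 0.974 ± 0.207 CPM to 13.3 ± 1.8 CPM and from 3.89 ± 0.766 CPM to 47.3 ± 3.81 CPM.

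Gbp8 was the exception in level. In PBS it was present at 19.75, 20.5 and 21.5 CPM in the first label set and at 35.9, 35.1 and 44.1 CPM in the second, far above the other members. It also moved least, with 75.7, 74.8 and 75.3 CPM in 65–79*SE and 83.1, 79.1 and 85.75 CPM in 65–79*PE of replicates 1–3. In replicates 4–6 it was at 36.5, 34.7 and 35.4 CPM in 65–79*SE and 149, 151 and 144 CPM in 65–79*PE. Its log2 fold changes against PBS with 65–79*PE, 2.01 ± 0.077 and 1.95 ± 0.075, were the smallest of the family in both label sets.

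By count, all 8 members rose with 65–79*SE in replicates 1–3 and all 8 with 65–79*PE in each label set, at an adjusted p below 0.05 and a fold over 1.5. Among all 16845 genes tested, 11% rose in that 65–79*SE contrast, and 8.38% and 6.40% rose with 65–79*PE in replicates 1–3 and 4–6. The median log2 fold change of the members was 6.74, 6.26 and 6.29 in these contrasts, beside −0.04, −0.04 and 0.00 over all genes. In 65–79*SE replicates 4–6 edgeR called 0 of 8 in either direction, as did DESeq2, beside 2.04% of all genes. Gbp5 (2 summed counts against 10 in PBS) and Gbp6 (11 against 25) were so low there that the lack of a call says little. Unadjusted p was below 0.05 there for 2 members, Gbp7 (−0.38 ± 0.183) and Gbp9 (−0.41 ± 0.162), both on the side of lower values, and the members' median was −0.36.

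**Figure D2:**
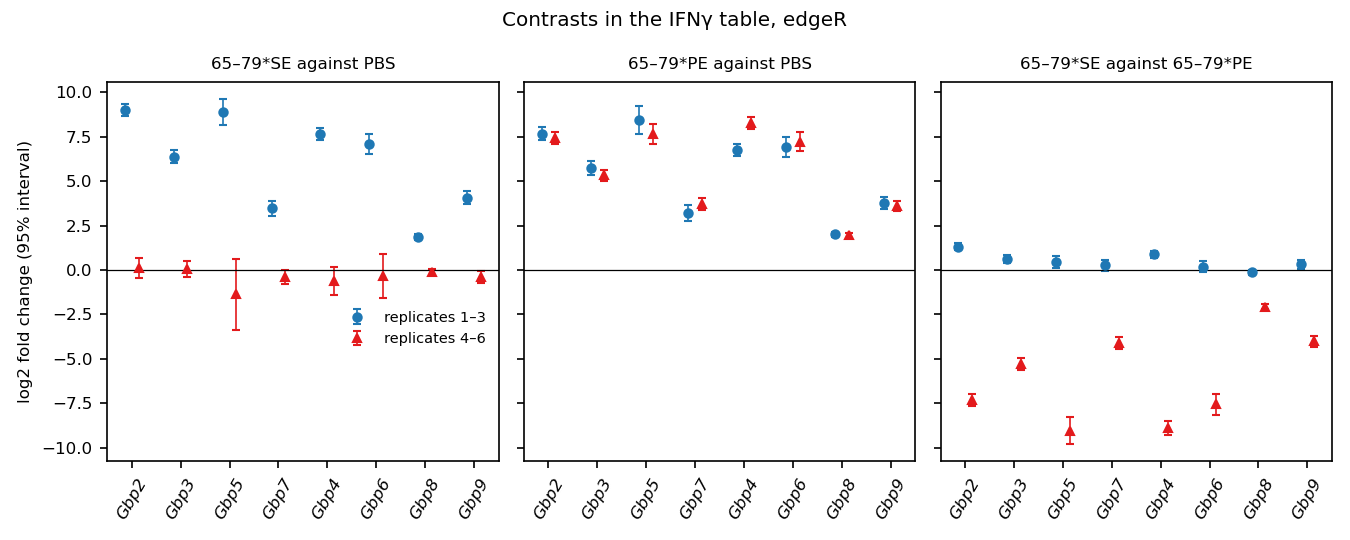
Log2 fold change of each member in the IFNγ table with its 95% interval, from edgeR, for replicates 1–3 (blue circles) and 4–6 (red triangles) in each of the 3 contrasts. In the 65–79*PE contrast against PBS only Gbp4 differed between the label sets by the test, while all 8 differed in the other contrasts, and the direct comparison of the peptides lay above 0 for 7 members in replicates 1–3 and below 0 for all 8 in replicates 4–6.

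The peptides were compared directly at the same cytokine, dose and time. Over 8 members and 2 label sets this gave 16 contrasts, each adjusted over all genes tested. In replicates 1–3, 65–79*SE exceeded 65–79*PE for Gbp2 by a log2 fold change of 1.32 (95% interval 1.11 to 1.52, adjusted p = 3.76e-08), for Gbp4 by 0.89 (0.69 to 1.10, adjusted p = 3.93e-06) and for Gbp3 by 0.62 (0.39 to 0.86, adjusted p = 5.49e-04). These 3 of 8 compare with 4.10% of all genes that were higher with 65–79*SE. The Gbp3 call needs replicates 1 and 3: without replicate 1 its adjusted p was 0.0204 and without replicate 3 it was 0.0275, but the fold fell under 1.5.

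The remaining 5 members did not pass. Gbp5 was higher with 65–79*SE by 0.46 (0.13 to 0.79, adjusted p = 0.0465), short of the fold required. For the others the interval was 0.06 to 0.57 for Gbp9, −0.05 to 0.59 for Gbp7, −0.12 to 0.49 for Gbp6 and −0.28 to 0.02 for Gbp8. Gbp8 was the only member whose estimate leaned to 65–79*PE.

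The same comparison in replicates 4–6 had the opposite sign for 7 members and the same sign for Gbp8. With 65–79*SE, log2 fold changes fell by between 2.06 (Gbp8) and 9.04 (Gbp5) relative to 65–79*PE, and all 8 members were called lower, beside 8.10% of all genes. Gbp2 differed by −7.33 ± 0.16 and Gbp4 by −8.92 ± 0.185. Since 65–79*SE replicates 4–6 were at PBS level, this contrast is close to the 65–79*PE contrast against PBS and shares its 65–79*PE libraries.

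The difference between label sets was tested directly. For 65–79*SE against PBS, all 8 members had larger values in replicates 1–3 than in replicates 4–6, by log2 values from 1.98 (Gbp8) to 10.27 (Gbp5), and 16.8% of all genes differed in that direction. For 65–79*SE against 65–79*PE all 8 differed, by 1.92 (Gbp8) to 9.81 (Gbp4), beside 16.4% of all genes. For 65–79*PE against PBS only Gbp4 differed, by −1.54 ± 0.308 (adjusted p = 0.00377), that is, it rose more in replicates 4–6, and 7.87% of all genes differed downward. For Gbp2 the interval of that difference ran from −0.37 to 0.87, and for Gbp8 from −0.16 to 0.28.

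Over both label sets together, all 8 members were higher in 65–79*PE than in PBS (6.55% of all genes rose), with log2 fold changes from 1.97 ± 0.277 (Gbp8) to 8.23 ± 1.32 (Gbp4). The 65–79*SE contrast called 7 members up, beside 2.83% of all genes, and Gbp7 missed with an adjusted p of 0.0616. That count became 0 when replicate 1, 2 or 3 was left out, and the standard error reached 1.42 for Gbp2. For the peptides against each other, Gbp8 alone was called, lower with 65–79*SE by −0.98 ± 0.278 (adjusted p = 0.0316), beside 1.17% of all genes, and 0 members were called without replicate 4, 5 or 6.

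Levels of different members can be compared per kilobase of exon, here the merged exons of GENCODE M21. In PBS, Gbp8 gave 89.4 ± 1.06% of the members' summed CPM per kilobase in replicates 1–3 and 82.4 ± 1.17% in replicates 4–6. With 65–79*SE in replicates 1–3, Gbp2 took 58.7 ± 1.23% and Gbp8 16.2 ± 1.46%. With 65–79*PE the shares of Gbp2 and Gbp8 were 40.9 ± 0.84% and 30.7 ± 1.6% in replicates 1–3, and 33.1 ± 2.59% and 27.9 ± 1.9% in replicates 4–6. The make-up of 65–79*SE replicates 4–6, with 83.8 ± 0.451% Gbp8 and 2.61 ± 0.26% Gbp2, was close to that of PBS.

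**Figure D3:**
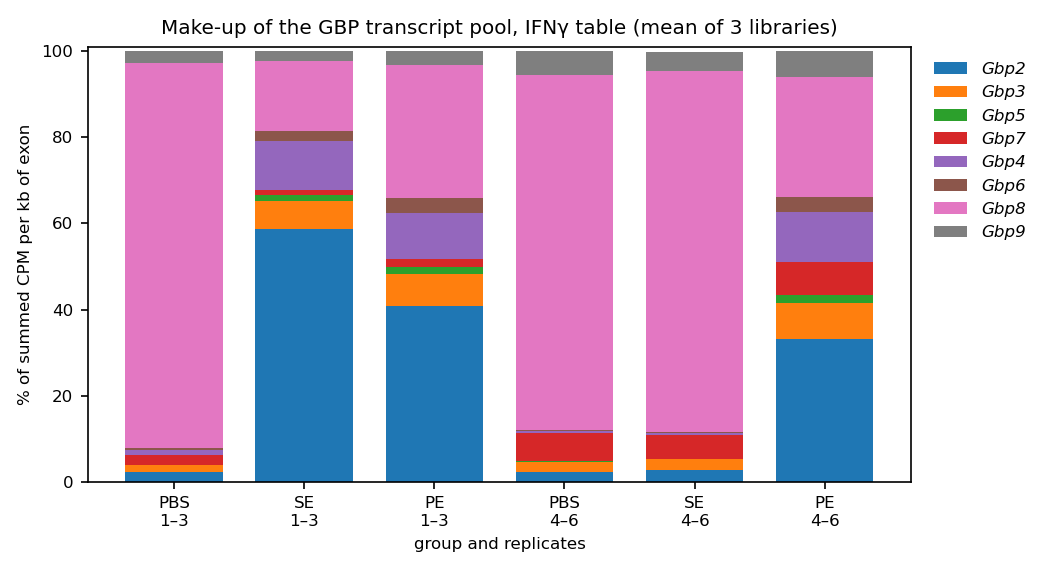
Share of each member in the summed CPM per kilobase of exon of the 8 members, as the mean of 3 libraries, for each treatment and label set of the IFNγ table. Pink Gbp8 fills 89.4%, 82.4% and 83.8% of the PBS and 65–79*SE replicates 4–6 bars, and blue Gbp2 is the largest part of the other 3.

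Among the induced cells, the order per kilobase in 65–79*SE replicates 1–3 was Gbp2 (79.6 ± 8.49), Gbp8 (21.9 ± 0.138), Gbp4 (15.2 ± 2.29), Gbp3 (8.96 ± 0.99), Gbp6 (3.29 ± 0.245), Gbp9 (3.20 ± 0.236), Gbp7 (1.80 ± 0.348) and Gbp5 (1.69 ± 0.117), all in CPM per kilobase. Gbp6 and Gbp9, and Gbp7 and Gbp5, were within the spread of their libraries. The order was the same with 65–79*PE in replicates 1–3. In 65–79*PE replicates 4–6, Gbp7 (11.9 ± 0.693) and Gbp9 (9.15 ± 0.737) stood above Gbp6 (5.24 ± 0.363). Gbp2 (51.5 ± 8.05) led Gbp8 (43.0 ± 1.07), and their libraries did not overlap.

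With Il-4, the GBPs stayed low. Summed over the 8 members, PBS, 65–79*SE and 65–79*PE had 10.6 ± 2.39, 8.48 ± 1.28 and 8.13 ± 1.44 CPM in replicates 1–3, and 14.3 ± 4.09, 25.6 ± 13.8 and 12.1 ± 1.42 CPM in replicates 4–6. Gbp4 and Gbp6 had at most 2 counts and Gbp5 at most 5 counts in any Il-4 library, and these 3 did not pass the filter on low counts. The other 5 were tested among 14183 genes.

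**Figure D4:**
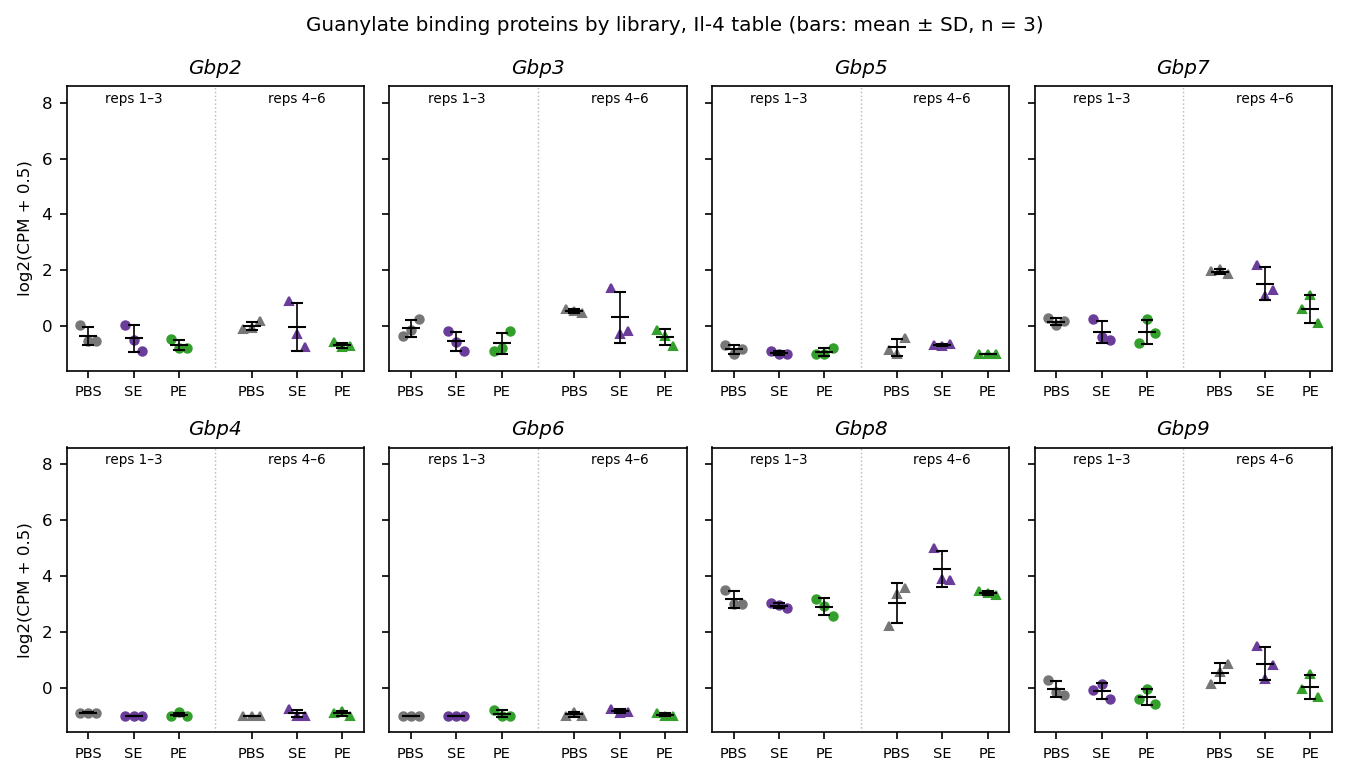
Level of each member in each library of the Il-4 table, drawn as for the IFNγ table on the same vertical scale, log2(CPM + 0.5). All groups sit low, with Gbp8 the highest panel, and the highest purple triangle for Gbp2, Gbp3, Gbp7, Gbp8 and Gbp9 is 65–79*SE replicate 4.

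In Il-4 replicates 1–3, edgeR called 0 of 5 members with 65–79*SE (6.17% of all genes), 0 of 5 with 65–79*PE (3.48%) and 0 of 5 between the peptides (0%). DESeq2 also called 0 in each, and 0 had an unadjusted p below 0.05. Gbp2 was 0.524, 0.2 and 0.186 CPM in PBS, 0.532, 0.217 and 0.0419 CPM in 65–79*SE and 0.227, 0.0861 and 0.0839 CPM in 65–79*PE, so the groups overlapped. Its interval for 65–79*SE against 65–79*PE, −0.94 to 2.88 on the log2 scale, leaves room for changes of several fold at this depth.

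In Il-4 replicates 4–6 a single member passed in each contrast against PBS. Gbp8 was 4.17, 9.69 and 11.3 CPM in PBS, 31.4, 14.4 and 13.8 CPM in 65–79*SE and 10.6, 10.1 and 9.38 CPM in 65–79*PE. All 65–79*SE values lay above all the others, and the log2 fold change against PBS was 1.24 ± 0.319 (adjusted p = 0.0415), where 1.23% of all genes rose. The call was lost without replicate 2, 3, 4 or 5 (adjusted p = 0.0986, 0.0826, 0.422 and 0.114), and without replicate 4 the value was 0.45. In an alternative chosen after seeing the data, leaving out 65–79*SE replicate 4 alone gave 0.76 (adjusted p = 0.245).

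Gbp7 was 3.40, 3.63 and 3.11 CPM in PBS replicates 4–6, 1.02, 1.65 and 0.572 CPM in 65–79*PE and 4.12, 1.62 and 1.94 CPM in 65–79*SE. The 65–79*PE libraries were below all PBS libraries, and 65–79*SE overlapped PBS. The log2 fold change with 65–79*PE was −1.59 ± 0.43 (adjusted p = 0.0377), beside 2.32% of all genes lower, and it was not called without any of replicates 2 to 6 (adjusted p = 0.0564 to 0.176). Between the peptides 0 of 5 were called by edgeR or DESeq2 and 0% of all genes, although all 5 had an unadjusted p below 0.05, each higher with 65–79*SE by 0.98 (Gbp8) to 2.21 (Gbp2).

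The 65–79*SE replicate 4 library carried much of that. It had 1.39 CPM of Gbp2 where replicates 5 and 6 had 0.331 and 0.0997, 2.10 CPM of Gbp3 where they had 0.331 and 0.399, and 2.28 CPM of Gbp9 where they had 0.736 and 1.25. Without that library alone, the values between the peptides were 0.81 for Gbp2, 0.65 for Gbp7 and 0.49 for Gbp8 (adjusted p = 0.963, 0.952 and 0.952). Differences between the label sets were called for 0 of 5 members in each Il-4 contrast by edgeR (4.39% of all genes for 65–79*SE against PBS, 0.00705% for 65–79*PE and 0% for the peptides against each other). DESeq2 called 1, 0 and 0, and unadjusted p was below 0.05 for 1, 0 and 1, each time Gbp8. Over both label sets, 0 of 5 were called with 65–79*SE (3.10% of all genes) and 0 of 5 between the peptides (0.00741%) by edgeR and DESeq2, with an unadjusted p below 0.05 for 0 and 4. Gbp7 was lower with 65–79*PE by −1.27 ± 0.354 (adjusted p = 0.0235), beside 2.19% of all genes, a call lost without replicate 1, 5 or 6. With replicate number as a block in the edgeR fit, Gbp2 (−1.69, adjusted p = 0.0273) and Gbp3 (−1.75, adjusted p = 0.0258) were called lower as well. Without 65–79*SE replicate 4 alone, 3 members were called lower, Gbp2, Gbp3 and Gbp7.

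A joint model of all 36 libraries asked whether the change against PBS was larger with IFNγ than with Il-4. Gbp4, Gbp5 and Gbp6 did not pass the filter with Il-4 and entered this model through their IFNγ libraries. Their Il-4 change could not be measured, so a call for them reflects the IFNγ side. With 65–79*PE the difference passed for 7 of 8 members in replicates 1–3 and 6 of 8 in replicates 4–6, beside 8.47% and 7.45% of all genes. It was 8.79 ± 0.91 and 9.32 ± 0.818 (log2) for Gbp2, and 2.27 ± 0.325 and 1.63 ± 0.321 for Gbp8. With 65–79*SE in replicates 1–3 it passed for 7 of 8, beside 12% of all genes, with 9.08 ± 0.89 for Gbp2. Each of these counts held all 5 members that were tested with Il-4. In 65–79*SE replicates 4–6 only Gbp8 passed, in the other direction (−1.35 ± 0.318, adjusted p = 0.0099, 3.05% of all genes), and this was lost without replicate 4 (adjusted p = 0.152). Gbp6 in replicates 1–3 and, with 65–79*PE, Gbp4 in replicates 4–6 had standard errors of 24.9 or more and could not be read, and Gbp6 in replicates 4–6 missed with 7.49 ± 2.92 (adjusted p = 0.0814). DESeq2 called all 8 members in these 3 comparisons other than 65–79*SE replicates 4–6.

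The 4 other GBP genes in the tables were Gbp2b, Gbp10, Gbp11 and a Gbp2 pseudogene, and the first 3 passed the filter with IFNγ. All 3 rose with 65–79*SE in replicates 1–3 and with 65–79*PE in both label sets. In 65–79*SE replicates 4–6 they gave −0.01 ± 0.345, 0.21 ± 0.358 and −1.07 ± 0.358 (adjusted p = 0.996, 0.82 and 0.0955). Gbp2b, which lies between Gbp3 and Gbp2, rose in replicates 1–3 by 8.88 ± 0.236 (65–79*SE) and 7.62 ± 0.237 (65–79*PE) and was 1.25 higher with 65–79*SE (adjusted p = 3.89e-06), as Gbp2 was. Gbp10 shares 73.5% of its 100-base windows with other genes, so its counts are uncertain like those of Gbp6.

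In the lists that follow, genes beyond the first 4 called in list order with 65–79*PE were named after their values were seen. Of 14 genes of interferon gamma signalling, 7 rose with 65–79*PE in each label set, among them Stat2, Irf1, Irf8 and the inhibitor Socs1. Irf1, a transcription factor of ISREs, rose by 2.79 ± 0.077 and 3.06 ± 0.077, and Stat2 by 1.17 ± 0.121 and 1.18 ± 0.12. The receptor chain Ifngr2 was lower by −0.61 ± 0.069 in replicates 1–3 and by −0.48 ± 0.069 in replicates 4–6, where it missed the fold. With 65–79*SE, 9 of 14 rose in replicates 1–3, while in replicates 4–6 Irf1 gave −0.03 ± 0.08 and Stat2 −0.18 ± 0.122. Between the peptides in replicates 1–3, Jak1 was higher with 65–79*SE (0.79 ± 0.089) while Irf1 was lower (−0.63 ± 0.07), so Irf1 and Gbp2 leaned to different peptides.

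Irgm proteins are small interferon-induced GTPases that keep GBPs off the cell's own membranes. All 3 measured, Irgm1, Irgm2 and Igtp, rose with 65–79*PE in both label sets and with 65–79*SE in replicates 1–3. Igtp rose by 3.01 ± 0.112 and 2.68 ± 0.11 with 65–79*PE. Between the peptides in replicates 1–3 they gave −0.12 ± 0.091, −0.24 ± 0.118 and 0.14 ± 0.097, below the fold required. Of 7 inflammasome genes tested, Casp4, Casp1 and Nlrp3 rose with 65–79*PE in both label sets, Casp1 by 1.06 ± 0.095 and 1.38 ± 0.095. With 65–79*SE in replicates 1–3, Casp4, Casp1, Nlrp3 and Il1b rose, 4 of 7, beside 11% of all genes. Il1b was also higher there with 65–79*SE than with 65–79*PE. Casp4 was lower than PBS in 65–79*SE replicates 4–6 (−0.87 ± 0.194, adjusted p = 0.0149). The pore former Gsdmd gave 0.18 ± 0.068 and 0.13 ± 0.069 and was not called.

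Of 10 genes of the Atg8 conjugation system, which helps to guide GBPs to vacuoles, Map1lc3a was lower with 65–79*PE in replicates 4–6 (−0.61 ± 0.147), and Gabarapl1 and Atg12 rose with 65–79*SE in replicates 1–3 (0.63 ± 0.061 and 0.66 ± 0.095). Atg12 was also higher with 65–79*SE than with 65–79*PE there (0.59 ± 0.094). Among all genes, 21.2% were called in either direction against PBS with 65–79*SE in replicates 1–3. With 65–79*PE the share was 18.5% in replicates 1–3 and 11.2% in replicates 4–6. Calls against PBS among these 10 Atg8 genes were not above those shares. Of 5 prenylation genes, Rce1 rose (0.62 ± 0.087) and Pggt1b, a geranylgeranyl transferase subunit, was lower (−0.65 ± 0.132) with 65–79*PE in replicates 1–3, beside 0.07 ± 0.088 and 0.01 ± 0.115 in replicates 4–6. In 65–79*SE replicates 1–3, Rce1 rose by 0.68 ± 0.087, and Pggt1b was higher than with 65–79*PE (0.59 ± 0.132). With Il-4, at most 2 of 14 signalling genes were called in any contrast within a label set, and Irgm2 was lower in 3 of 6.

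**Figure D5:**
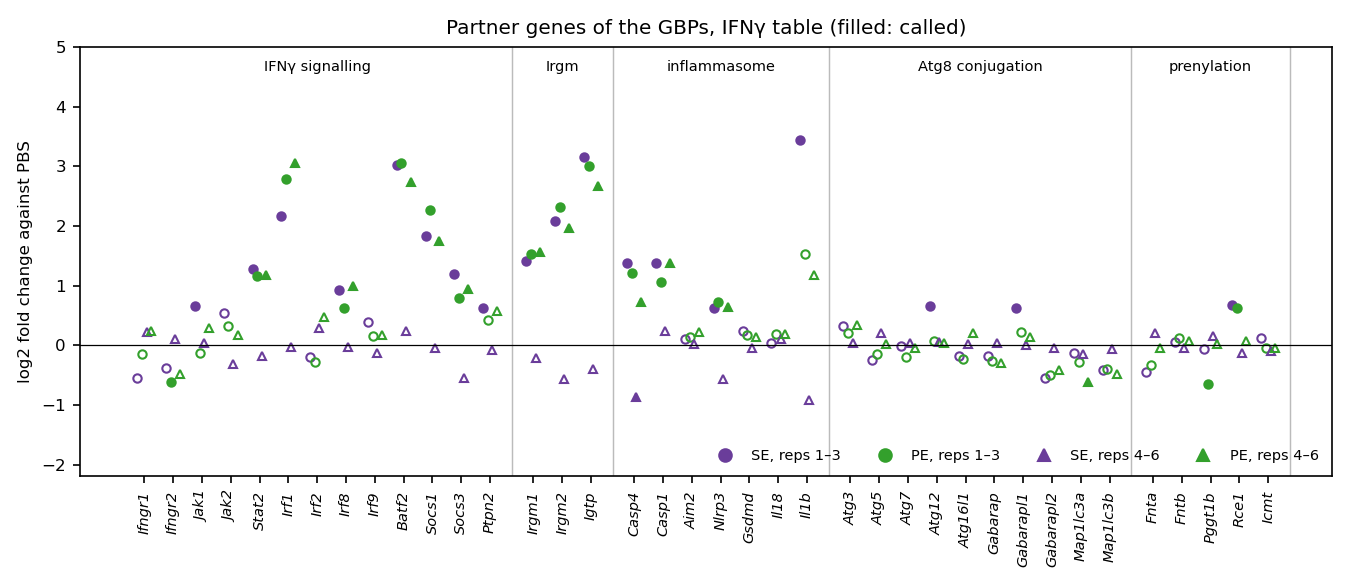
Log2 fold change against PBS in the IFNγ table for listed genes of interferon signalling, Irgm, inflammasome, Atg8 conjugation and prenylation, with 65–79*SE in purple and 65–79*PE in green, circles for replicates 1–3 and triangles for replicates 4–6, and filled where called. Signalling and Irgm genes such as Stat2, Irf1 and Igtp are filled and above 0 for all but the purple triangles. Among Atg8 and prenylation genes, Gabarapl1, Atg12, Map1lc3a, Pggt1b and Rce1 have filled points.

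Across the 18 IFNγ libraries, the genes outside the family whose log2 CPM followed the members' mean most closely, of 9088 considered, included Cd86 (r = 0.993), Ctse (r = 0.991), Iigp1 (r = 0.991) and AC125149.1 (r = 0.990). These libraries share groups, and the libraries at PBS level and at the induced level set most of each r, so it is given as a description. Cd86, a costimulatory ligand, had 3.12 ± 0.436 CPM in PBS, 40.1 ± 2.24 in 65–79*SE and 40.2 ± 1.93 in 65–79*PE in replicates 1–3, and 6.61 ± 1.14, 5.31 ± 1.21 and 74.6 ± 6.69 CPM in replicates 4–6. Iigp1, an immunity-related GTPase, went from 0.0101 ± 0.0175 CPM in PBS to 37.2 ± 3.17 and 41.2 ± 2.38 CPM in replicates 1–3.

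The genes that flank the clusters were read for comparison. On chromosome 3, Pdlim5, Kyat3 and Gtf2b were not called against PBS with either peptide in either label set, and Bmpr1b was at or under the floor. Kyat3 begins 32010 bases beyond the end of the Gbp2 pseudogene and gave −0.51 ± 0.123 and 0.08 ± 0.12 in replicates 1–3, for 65–79*SE and then 65–79*PE. On chromosome 5, Lrrc8c, 172916 bases beyond the end of Gbp11, rose with 65–79*PE by 1.00 ± 0.119 in replicates 1–3 and 1.44 ± 0.118 in replicates 4–6. The rise with 65–79*SE was 0.90 ± 0.119 in replicates 1–3. Lrrc8b, which lies nearer, was lower with 65–79*PE in replicates 1–3 (−0.67 ± 0.19).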

How the data were processed

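RNA from RAW264.7 cells was sequenced in 36 libraries, 18 in each of 2 tables. The authors aligned reads to GRCm38.p5 and deposited raw counts of uniquely aligned reads per gene (featureCounts, GENCODE M12), and their processing notes name DESeq2 1.16.1 and R 3.4.1. The aligner and the strand setting are not given in the sources used here. Each table was fitted whole with edgeR 4.0.16 (quasi-likelihood test, TMM, filterByExpr, R 4.3.3), with a mean for each treatment in each label set, and every p was adjusted by Benjamini-Hochberg over all genes tested. A call needed an adjusted p below 0.05 and a fold over 1.5, and tests of a difference between label sets or tables needed the adjusted p alone. Pooled fits added a label set term, and a joint model held all 36 libraries. CPM used TMM library sizes. Total counts were 17049921 to 63155889 per library, and a count of 0 allows 3 counts.

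Alternatives were DESeq2 1.42.0, RLE size factors, no filter, at least 10 counts in 3 libraries, a replicate block, no label set term, separate fits of the label sets and leaving out each replicate number. Tests were checked on simulated counts. The 8 members and the gene lists were chosen with earlier results of these data known. Genes outside the family were named as the first 4 called in list order with 65–79*PE and IFNγ, the 5 with the highest correlation with the members' mean, and the 2 nearest protein-coding genes on each side of each cluster. Exon lengths and windows came from GENCODE M21 and promoters from RefSeq GRCm38.p6. The values of 1 gene named by these rules are not reported here.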

Additional observations from a re-analysis of the deposited data

Results flagged for a closer look

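In 48 groups of 6 libraries, with both label sets together, a test looked for a library that stood apart from the rest. Its nominal chance rate of 1 in 20 cannot be relied on here. The label sets differ in level, and some groups had no count in all but 1 library. Gbp6 in PBS replicate 6 of the IFNγ table was 0.378 CPM where the others had 0.0788 to 0.182 CPM. In the Il-4 table, 65–79*SE replicate 4 stood apart for 4 members. It held 1.39 CPM of Gbp2 (others 0.0419 to 0.532 CPM), 2.1 CPM of Gbp3 (others 0.0419 to 0.399 CPM), 31.4 CPM of Gbp8 (others 6.66 to 14.4 CPM) and 0.0895 CPM of Gbp4, where the others had no count. The Il-4 libraries PBS replicate 5 (0.0497 CPM of Gbp6) and 65–79*PE replicate 3 (0.0839 CPM of Gbp5) were also picked out, each against libraries without a count, so they rest on 1 and 2 counts.

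The change against PBS differed between the label sets of the IFNγ table for 8 members with 65–79*SE and for 1 with 65–79*PE, and the difference between the peptides did so for 8. Among all genes, 35.7%, 11.5% and 28.8% differed in either direction. Between the IFNγ and Il-4 tables the change against PBS differed for 7 members with 65–79*SE in replicates 1–3 and for 1 in replicates 4–6. With 65–79*PE it differed for 7 and 6 members in replicates 1–3 and 4–6. The shares of all genes were 26.5%, 6.26%, 18.1% and 16%. The counts of 7 and 6 include members whose Il-4 counts were too low for the filter.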

How the results depend on the processing

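Counts of called members in the IFNγ table within a label set stayed at 8, 8, 0, 8 and 8 for both peptides against PBS and for the peptides in replicates 4–6 under every alternative run, and at 2 to 3 for the peptides in replicates 1–3. The pooled and Il-4 counts were less stable, and the cause was not tested. Over both label sets with IFNγ, the 7 members called with 65–79*SE became 0 with the replicate block and 1 with no label set term, and ranged from 0 to 8 when replicates were left out. The 1 member called between the peptides became 3 without the filter, 0 with the block, 0 with no label set term and 2 by DESeq2 with no label set term, and 0 to 1 when replicates were left out.

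With Il-4 in replicates 4–6, the 1 member called with 65–79*SE became 0 in separate fits and without 65–79*SE replicate 4 alone, and 0 to 1 when replicates were left out. The 1 called with 65–79*PE became 3 without the filter, 0 in separate fits and 0 to 1 when replicates were left out. Between the peptides the count of 0 became 4 without the filter, and 1 over both label sets. The count of 0 for the difference between label sets with 65–79*SE became 1 by DESeq2, without the filter and with the block, and 0 to 1 when replicates were left out. Over both label sets, the 1 called with 65–79*PE became 2 by DESeq2, 3 without the filter, 3 with the block, 3 without 65–79*SE replicate 4 alone, 0 with no label set term by edgeR and by DESeq2, and 0 to 1 when replicates were left out. The 1 member that differed between tables with 65–79*SE in replicates 4–6 became 0 without 65–79*SE replicate 4 alone and 0 to 1 when replicates were left out.

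Replicate numbers were not treated as pairs in the main fits. The correlations of same-numbered libraries ran from −0.126 to 0.125 with IFNγ and from −0.11 to 0.395 with Il-4. Every library of number 6 with IFNγ, and of numbers 1, 2, 3, 4 and 6 with Il-4, correlated best with its own number, which was not so for the others. With Il-4 the numbers may therefore mark pairs, which the main fits did not take into account. The replicate block changed no call other than those given. Of the alternative values for single members, 2204 kept their direction or stayed uncalled on the same side of the threshold, 30 passed it newly, 61 no longer passed, and none of these reversed. With Il-4, low counts limit what can be said of Gbp4, Gbp5 and Gbp6.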
